A study of Xiphophorus maculatus with 65 samples.

Results

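Oxidative phosphorylation is the last stage of respiration in mitochondria. Complex I takes electrons from NADH and complex II takes them from succinate, complexes III and IV pass them on to oxygen, and complex V (ATP synthase) uses the resulting proton gradient to make ATP. Nearly all subunits are coded in the nucleus and imported, while a small number of core subunits of complexes I, III, IV and V come from mitochondrial DNA. Liver and muscle are known as tissues rich in mitochondria.

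The genes described here were picked by name alone, from NCBI gene symbols that begin as those of complex I subunits (nduf followed by a, b, c, s or v, leaving out ndufaf), complex II subunits (sdh), complex III subunits (uqcr), complex IV subunits (cox4 to cox8) or complex V subunits (atp5). They numbered 56 of 27242 gene models, with 35 of complex I, 3 of complex II (sdha, sdhc and sdhd), 4 assembly factors of complex II that share the sdh letters (sdhaf1 to sdhaf4) and 14 of complex V. No symbol of complex III or complex IV matched, 15054 gene models carried only a LOC symbol, and genes of those complexes were not analysed here. The 56 genes lay on 23 chromosomes of X_maculatus-5.0-male, with at most 5 on 1 chromosome, and all were annotated as protein coding.

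RNA-Seq read counts came from skin and liver of 2 inbred strains of the platyfish *X. maculatus*, JpA and JpB, and the 65 libraries gave 61 samples once near-identical libraries of a fish were summed. Other libraries that share a fish label stayed separate samples. The labels carry the words 0 min, 0pt, CO-0min, sham or UV at 0 kJ, or give an hour of the day. Words of 0 min, sham or 0 kJ mark controls without treatment, and what 0pt and CO stand for is not explained. All JpB skins of year 4 carry 0pt, and the JpB skins of 12 months of year 2 carry CO-0min. All the fish were male. The sample names carry dates of 5 calendar years, numbered here from year 1, the earliest, to year 5, the latest. JpA skin came from fish of 13 months (4 samples, year 5), 20 months (5, year 4) and 24 months (16, year 4), the last with 2 fish at each of 8 hours of the day. JpB skin gave 26 samples of 9 to 12 months from all 5 years. JpA liver came from fish of 20 months (4, year 4) and 13 months (2, year 5), and JpB liver from fish of 9 months (4, year 5). The 2 JpA livers of 13 months have titles that name JpB, while their strain field names Jp163A. Strain, age, year and depth go together in most comparisons, and in whole tissue fewer cells of a type and less RNA per cell cannot be told apart.

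Total counts per sample ran from 26843901 in a JpB skin to 98104664 in another, and the lowest count of any of the 56 genes in a library was 19, for ndufs1. For the other 55 genes it was 54. Levels are given as CPM (counts scaled to 1000000 per library) after TMM scaling over all samples, or as means of log2 CPM. No transcript lengths were at hand, so levels are compared between samples and not between genes. The tissue labels matched their markers, since all 10 hepatocyte markers measured were higher in liver and all 7 skeletal muscle markers and 5 collagens were lower in liver than in skin, in each of the 3 sets of fish compared. Of 8 markers of keratinocytes and mucous cells 7 were lower in liver and 1 was higher in each set. The higher marker was cldn1 in JpB and in JpA of 13 months. No symbol of erythrocytes matched.

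A few samples stood apart in these genes. JpA skin 9, labelled 17 h, had a mean of 6.51 log2 CPM over the 56 genes, against 4.49 to 5.35 in the other JpA skins. It was the highest JpA skin for 53 of the genes, with ndufs1, sdhaf1 and sdha as the exceptions. Its 67 cytosolic ribosomal protein genes also had the highest mean, 11.35 against at most 10.12. JpB skin 3 had the lowest mean of the JpB skins, 4.07, and was lowest for 42 genes. It carried the same fish label as JpB skin 4 and JpB skin 5, whose means were 5.11 and 4.98. JpB skin 11 and JpB skin 12 had the highest means of the JpB skins, 5.66 and 5.57. Their muscle markers were also the highest of the JpB skins, at 7.73 and 7.89 against at most 7.14 in the others. JpA liver 2 had a mean of 5.79 against 6.40 to 6.64 in the other JpA livers, and its leukocyte markers stood at 5.23 against at most 2.45. Across genes, the deviation of a sample from its group correlated with the log10 gene span at -0.48 in JpA skin 9 (-0.31 to 0.24 in the other JpA skins) and at 0.38 in JpB skin 3 (-0.36 to 0.31 in the other JpB skins), which is a description, and the part of span was not tested. Results that rest on these samples are given with and without them, and what part these markers play was not tested.

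**Figure D1:**
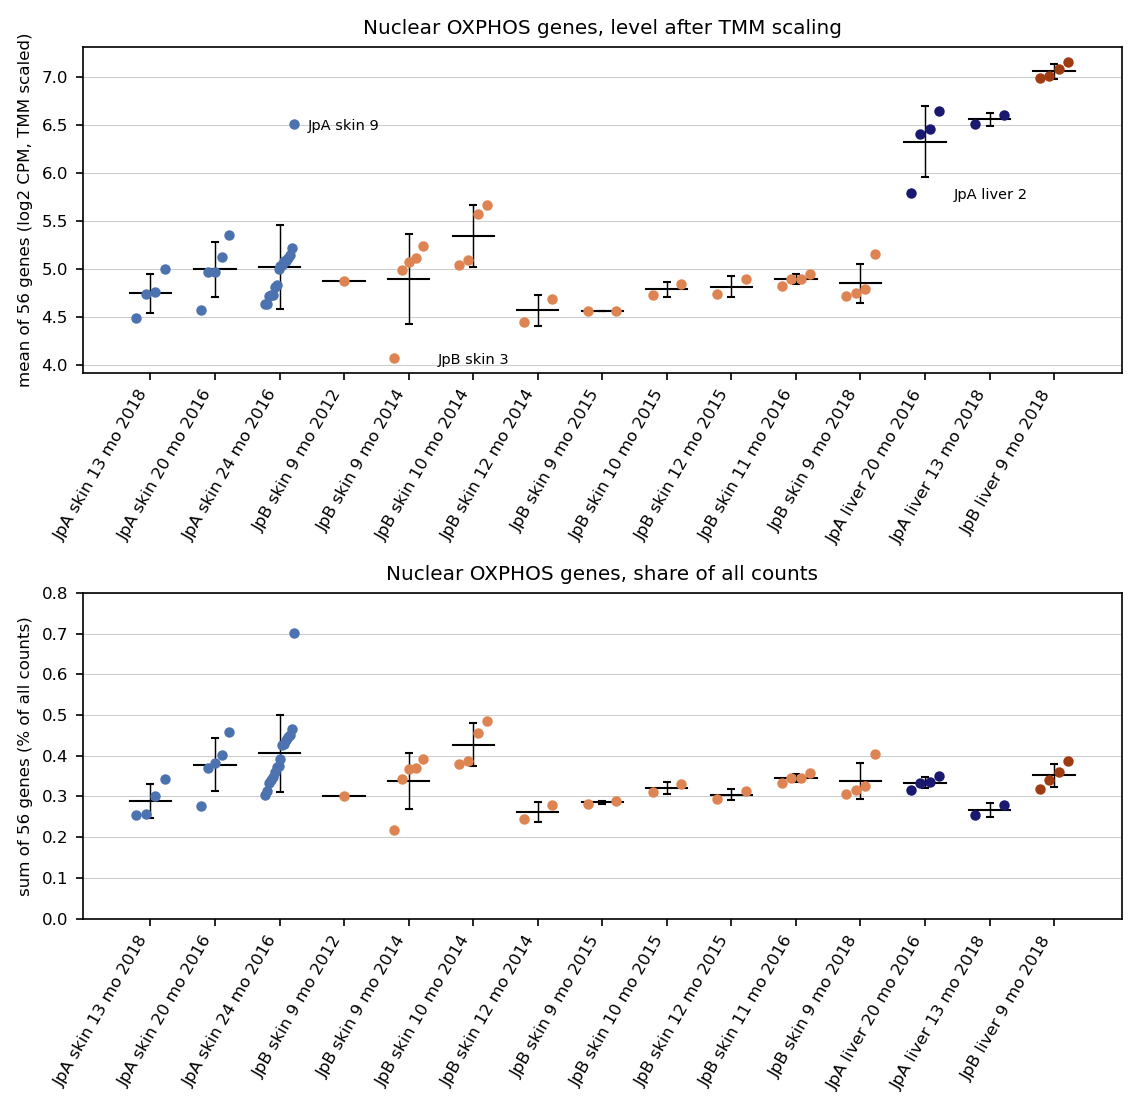
Upper plot, mean log2 CPM (TMM scaled) of the 56 genes in each sample. Lower plot, the percentage of all counts held by the 56 genes together. Points are samples, grouped by strain, tissue, age and calendar year of the label, with the group mean as a bar and the SD as whiskers. After TMM scaling the JpB livers lie at 6.99 to 7.16 and the JpB skins of year 5 (the latest) at 4.71 to 5.15, while the shares of all counts of livers and skins lie side by side.

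The first comparison asked how liver differs from skin in fish of 1 strain, age and year. In JpB the livers and skins share 1 label date. In both JpA sets the label date of the livers differs from that of the skins, so tissue and label date cannot be told apart there. The JpA livers of 13 months all carry sham, and their skins carry 0 min or sham. In JpB of 9 months (4 livers, 4 skins) 55 of the 56 genes were higher in liver and none was lower, with a median log2 fold of 2.06 (4.16-fold), against a median of -0.29 over all genes tested. Of all genes tested, 36.5% were higher in liver and 47% were lower. In JpA of 20 months (4 livers, 5 skins) 50 genes were higher and 1 was lower, with a median of 1.27 (2.42-fold) against -0.16 over all genes, where 24.9% were higher and 31.1% lower. The skins and livers of this set all carry the fish labels n, x and z and were treated as independent. Its SDs, SEs and p-values therefore do not measure the spread between fish. In JpA of 13 months (2 livers, 4 skins) 55 were higher and none was lower, with a median of 1.64 (3.11-fold) against -0.29, where 28.6% were higher and 37.2% lower. Every liver lay above every skin for 55, 47 and 55 of the genes, against 38.5%, 22.6% and 36.3% of all genes tested in the 3 sets. All calls are edgeR quasi-likelihood tests with an adjusted p under 0.05.

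These folds are relative to the middle of all genes, and they turn with the scaling. A few transcripts fill much of the liver libraries, where the 10 highest genes held 25.3% of counts in JpA and 29.3% in JpB, against 8.29% and 9.94% in the skins. The 56 genes together held 0.352% ± 0.0287 of all counts in JpB liver (SD, n = 4) and 0.338% ± 0.0453 in the JpB skin of year 5 (n = 4). They held 0.334% ± 0.0140 in the JpA liver of 20 months (n = 4) against 0.378% ± 0.0657 in skin (n = 5), and 0.267% ± 0.0180 in the JpA liver of 13 months (n = 2) against 0.289% ± 0.0420 in skin (n = 4). In each set the mean shares of liver and skin differed by less than the SD of the skins. With no scaling beyond total counts, the median fold of the 56 genes was -0.15 in JpB, with 6 genes higher and 15 lower. It was -0.37 in JpA of 20 months (2 higher, 22 lower) and -0.31 in JpA of 13 months (5 higher, 11 lower), while the median of all genes was -2.49, -1.76 and -2.23. The distance of the 56 genes from the median of all genes hardly moved, from 2.35 to 2.34 log2 in JpB, from 1.43 to 1.39 in JpA of 20 months and at 1.92 in both scalings in JpA of 13 months. The folds below are TMM scaled and are to be read in this relative sense.

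All 4 groups of genes had medians above 0. In JpB the median log2 fold was 2.03 for complex I, 1.66 for the complex II subunits, 1.73 for the complex II assembly factors and 2.17 for complex V. In JpA of 20 months the medians were 1.26, 0.96, 0.83 and 1.38 in the same order. In JpA of 13 months they were 1.65, 1.26, 1.21 and 1.74. The order of the 56 folds was much the same in the 3 sets, which share no sample. Spearman's correlation across the genes was 0.90 between JpB and JpA of 20 months, 0.75 between JpB and JpA of 13 months and 0.80 between the JpA sets. It is a description across genes, which are not independent replicates.

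**Figure D2:**
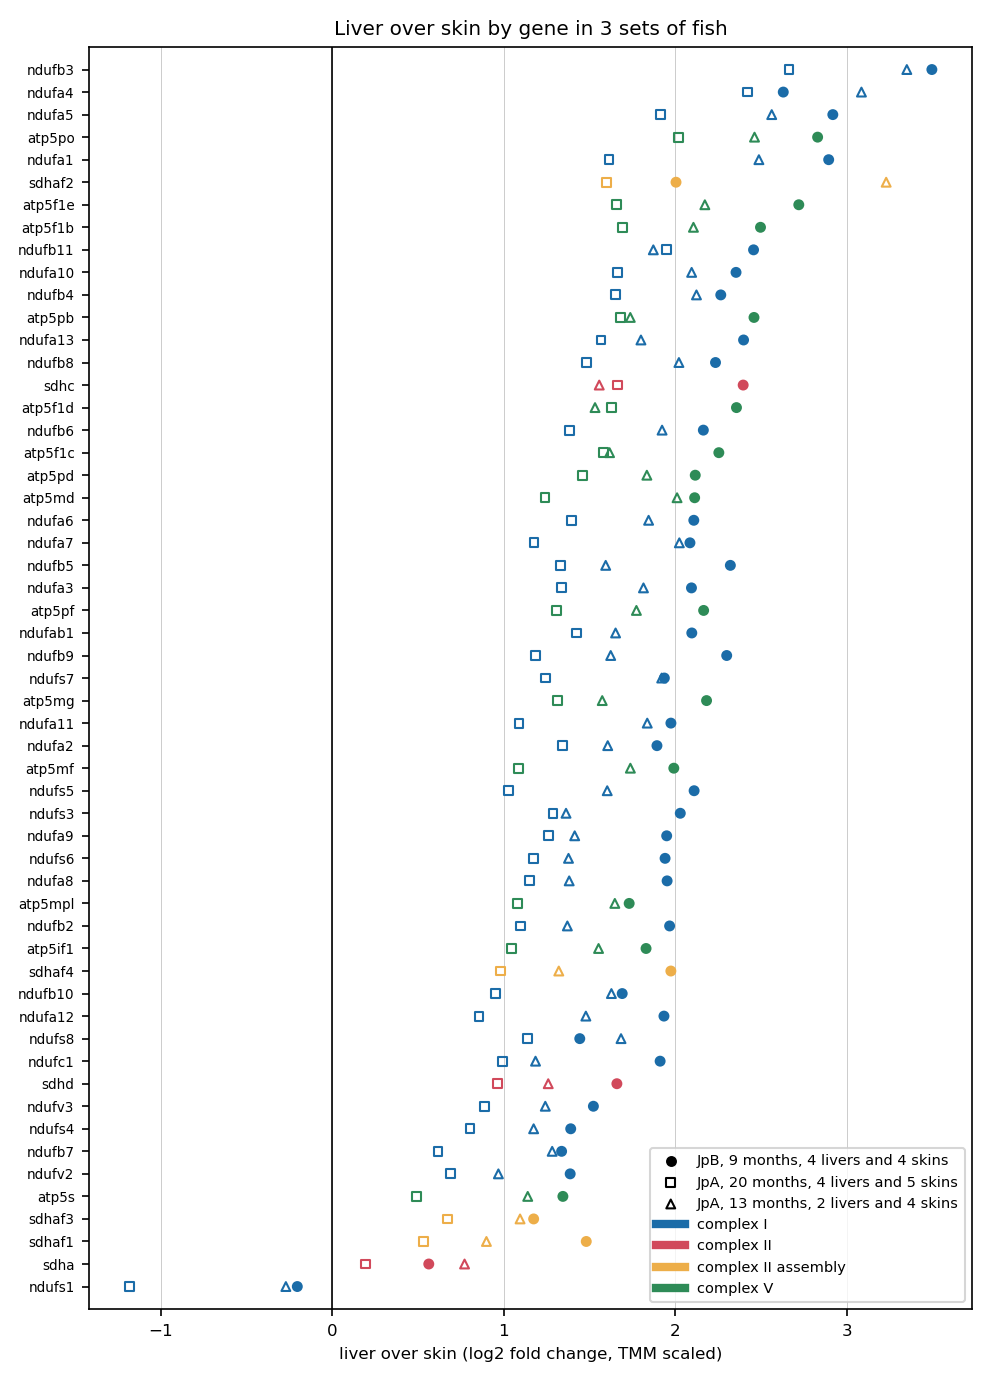
Liver over skin for 55 of the 56 genes (log2 fold change, TMM scaled) in JpB of 9 months, JpA of 20 months and JpA of 13 months. Marker shapes are the sets of fish and colours are the complexes, and genes are ordered by the mean of the 3 folds. ndufb3 stands at the top with 3.49, 2.66 and 3.35, sdha near the bottom with 0.56, 0.19 and 0.77, and ndufs1 is the gene below 0 in all 3 sets.

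In complex I, ndufb3, an accessory subunit of the membrane arm (gene 102234849, chromosome 6, 9035080 to 9036847), had the largest mean fold. Its CPM was 21.6, 22.2, 24.2 and 33.3 in the JpB skins and 260, 293, 373 and 379 in the JpB livers. In JpA of 20 months the skins held 24.9, 25.3, 26.0, 26.9 and 36.0 and the livers 105, 200, 223 and 228. In JpA of 13 months the skins held 18.0, 23.0, 23.4 and 28.5 and the livers 249 and 259. The groups did not overlap in any set, and the lowest liver in JpA of 20 months was still far above the highest skin. The log2 folds were 3.49 (SE 0.19, edgeR adjusted p 1.832e-08), 2.66 (SE 0.24, adjusted p 6.958e-06) and 3.35 (SE 0.21, adjusted p 7.442e-06). With total counts only, ndufb3 was still higher, at 0.98 in JpA of 20 months (adjusted p 0.000798) and 1.39 in JpA of 13 months (adjusted p 0.000436).

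ndufa4, first described in complex I and placed with complex IV in mammals, had the next largest fold of complex I in both JpA sets. Its CPM was 36.5, 44.6, 45.5 and 74.5 in the JpB skins and 315, 347, 363 and 397 in the JpB livers. The log2 folds were 2.63 (SE 0.21) in JpB, 2.42 (SE 0.33) in JpA of 20 months and 3.08 (SE 0.35) in JpA of 13 months, and they stayed above 0 and called with total counts only, at 0.43, 0.72 and 1.12. The accessory subunits ndufa1 and ndufa5 had folds of 2.89 and 2.92 in JpB, 1.61 and 1.91 in JpA of 20 months and 2.49 and 2.56 in JpA of 13 months.

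The exception was ndufs1, the largest core subunit of complex I, which carries iron-sulfur clusters (gene 102229581, chromosome 7, 16930494 to 16943437). Its CPM was 5.93, 6.33, 6.44 and 6.63 in the JpB skins and 3.40, 5.15, 7.90 and 8.66 in the JpB livers. In JpA of 20 months the skins held 4.18, 5.32, 6.19, 6.42 and 10.1 and the livers 1.70, 2.00, 3.67 and 4.66. In JpA of 13 months the skins held 4.27, 6.57, 7.16 and 7.96 and the livers 5.62 and 5.93. Livers and skins overlapped in all 3 sets. Its log2 fold was -0.20 in JpB (SE 0.26, edgeR adjusted p 0.4757) and -0.27 in JpA of 13 months (SE 0.30, adjusted p 0.4466). It was called lower in JpA of 20 months, at -1.18 (SE 0.39, adjusted p 0.02421), but not without JpA liver 2 or without JpA liver 3, when none of the 56 genes was called lower. It held the lowest library count of the 56 genes and, at 3.01 CPM, their lowest mean in the JpA livers of 20 months. In the skins of that set its mean of 6.44 CPM lay above those of sdhaf1 (4.71), sdhaf3 (4.74) and sdhaf2 (5.54).

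In complex II the subunits parted. sdha, the flavoprotein that oxidizes succinate (gene 102235474, chromosome 3, 24609133 to 24617553), was at 64.3, 64.3, 69.6 and 81.5 CPM in the JpB skins and 113, 115, 115 and 129 in the JpB livers, a log2 fold of 0.56 (SE 0.11, edgeR adjusted p 0.0005596). In JpA of 20 months its skins ran from 50.7 to 109 and its livers from 88.6 to 106, which overlap, and the fold of 0.19 did not pass (SE 0.23, adjusted p 0.5043). In JpA of 13 months it was 0.77 (SE 0.17, adjusted p 0.005197). sdhc, a membrane anchor (gene 102233308, chromosome 6, 24896547 to 24903619), was at 16.8, 18.0, 19.6 and 20.6 CPM in the JpB skins and 101, 106, 118 and 126 in the livers. Its log2 fold was 2.39 (SE 0.11) in JpB, 1.66 (SE 0.24) in JpA of 20 months and 1.56 (SE 0.17) in JpA of 13 months. The other anchor, sdhd, had folds of 1.66, 0.96 and 1.26. With total counts only, sdha fell by 1.64 log2 in JpB and by 1.19 in JpA of 13 months, and sdhd fell by 0.55, 0.71 and 0.69 in the 3 sets, all called lower.

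Among the assembly factors of complex II, sdhaf2, which helps attach flavin to sdha, was at 2.62, 2.66, 3.18 and 3.45 CPM in the JpA skins of 13 months and 26.4 and 33.7 in the livers, a log2 fold of 3.23 (SE 0.22, edgeR adjusted p 1.158e-05). Its folds in JpB and in JpA of 20 months were 2.00 (SE 0.21) and 1.60 (SE 0.31). sdhaf1, which serves iron-sulfur insertion, had 1.48 in JpB, 0.90 in JpA of 13 months and a fold of 0.53 that did not pass in JpA of 20 months (adjusted p 0.2694).

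In complex V, atp5f1b, the catalytic beta subunit (gene 102236091, chromosome 24, 1552351 to 1556386), was at 484, 493, 499 and 619 CPM in the JpB skins and 3035, 3123, 3535 and 3811 in the JpB livers. In JpA of 20 months the skins held 380, 518, 519, 626 and 734 and the livers 1363, 1849, 2198 and 2260. In JpA of 13 months the skins held 435, 486, 493 and 546 and the livers 2261 and 2281. Livers and skins were apart in each set, with log2 folds of 2.50 (SE 0.15, edgeR adjusted p 4.588e-08), 1.69 (SE 0.26, adjusted p 0.0002448) and 2.10 (SE 0.21, adjusted p 7.167e-05). atp5po, which joins the catalytic head to the peripheral stalk, had the largest fold of the complex in JpB and in both JpA sets, at 2.83, 2.02 and 2.46. atp5if1, an inhibitor of ATP hydrolysis by the synthase, was at 31.1, 32.5, 35.5 and 37.4 CPM in the JpB skins and 127, 136, 142 and 149 in the livers (log2 fold 1.83, SE 0.10). In JpA of 20 months its livers split, with 28.9 and 33.1 inside the skin range of 19.0 to 34.8 and 88.1 and 100 above it, and the log2 fold was 1.04 (SE 0.39, adjusted p 0.04079).

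Further lists of genes of respiration were taken for comparison. The list of assembly factors includes sdhaf1 to sdhaf4, which are also among the 56 genes. Of 23 assembly factors of the respiratory chain measured, 22 were higher in liver in JpB, 15 in JpA of 20 months and 19 in JpA of 13 months, and none was lower. Of 14 genes of electron carriers and ubiquinone synthesis 12, 7 and 9 were higher and none was lower. Of 15 citrate cycle genes 12, 11 and 12 were higher and none was lower. Among them suclg2, a subunit of succinyl-CoA ligase, had log2 folds of 5.16, 4.54 and 4.78, and fh, fumarate hydratase, had 3.07, 2.33 and 2.64. Citrate synthase (cs) did not pass in any set, with folds of 0.27 (SE 0.14), 0.07 (SE 0.22) and 0.38 (SE 0.20). Of 7 glycolysis genes 5 were higher and 2 lower in each set. Of 5 genes of ADP/ATP carriers, the phosphate carrier and uncoupling proteins 2 were higher and 1 lower in JpB. In each JpA set 2 of these were higher and 2 lower. Of 10 regulators of mitochondrial biogenesis 4 were higher and 2 lower in JpB, 2 were higher in JpA of 20 months and 4 in JpA of 13 months. ppargc1a, a coactivator of respiratory genes, had log2 folds of 3.21 (SE 0.28), 3.62 (SE 0.56) and 5.39 (SE 0.33). The cytosolic ribosomal protein genes were also high in liver, with means of 11.35 log2 CPM in JpB liver and 10.76 in JpA liver against 9.54 and 9.49 in the skins. The 75 mitochondrial ribosomal protein genes stood at 4.92 and 4.52 against 3.56 and 3.70. The 56 genes are short, with a median gene span of 3168 bp against 11094 bp for 13585 genes with a mean above 2 log2 CPM, and the part of span in these folds was not tested.

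The difference of the tissue effect between the strains was tested in 1 fit of the JpB fish of 9 months and the JpA fish of 20 months (17 samples). The JpA samples of this fit carry only the fish labels n, x and z and were treated as independent. The fitted difference, JpB minus JpA, was above 0 for all 56 genes, with a median of 0.70 log2 against -0.06 over all genes tested. The difference passed for 8 genes, or 14.3%, where 3.04% of all genes tested passed in that direction and 5.7% in the other. They were ndufa1 (1.21, SE 0.31, edgeR adjusted p 0.02996), ndufb9 (1.05, SE 0.26, adjusted p 0.02646), ndufs5 (1.01), ndufa12 (1.01), ndufb5 (0.92), sdhaf4 (0.93), atp5f1e (0.99, SE 0.23, adjusted p 0.02093) and atp5pf (0.79), where atp5f1e and atp5pf are subunits of the head and the peripheral stalk of ATP synthase. For ndufa1 the JpB livers held 211, 215, 260 and 269 CPM and the JpA livers of 20 months 58.1, 106, 133 and 138, while the skins held 25.3 to 33.6 in JpB and 26.3 to 39.2 in JpA. The livers were apart and the skins overlapped. The calls hang on single samples. They numbered 18 without JpA liver 4 and 16 without JpA skin 24, 5, 4 and 2 without JpA skin 23, JpA skin 22 or JpA skin 14, 4 without JpB liver 3, 3 without JpB liver 1 or JpB liver 4, 1 without JpB liver 2, JpB skin 32 or JpB skin 33, and 0 without JpB skin 31. The refit without JpA liver 2 is not among those listed. With total counts only, 1 gene was called. The shares of all genes called in these refits are not given here, so the counts alone do not set these genes apart. At least 55 of the 56 differences were above 0 whichever sample was left out. Age and year go with the strain in these sets, and in the JpA set alone the label date differs between the tissues.

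Between the strains in liver (4 JpB, 6 JpA), 54 of the 56 genes had a fold above 0, with a median of 0.53 log2 against -0.08 over all genes tested, and 13 were called higher and none lower. Of all genes tested, 3.94% were called higher in JpB and 4.91% lower. Every JpB liver lay above every JpA liver for 41 of the 56 genes, against 12.1% of all genes tested. The called genes were 10 of complex I (ndufa12, ndufb2, ndufb5, ndufb6, ndufb8, ndufb9, ndufb10, ndufc1, ndufs3 and ndufs6) and 3 of complex V (atp5mf, atp5pd and atp5pf), with folds from 0.55 for ndufs3 to 0.84 for ndufa12. None of the complex II subunits or assembly factors was called. The genes with folds below 0 were sdhaf2 at -0.49 and ndufs8, a core subunit of complex I, at -0.25.

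ndufa12, an accessory subunit of the matrix arm (gene 102227677, chromosome 17, 9953088 to 9954973), was at 108, 108, 115 and 129 CPM in the JpB livers, at 38.2, 55.6, 56.8 and 62.7 in the JpA livers of 20 months and at 68.0 and 68.5 in those of 13 months. The strains did not overlap, and its log2 fold was 0.84 (SE 0.15, edgeR adjusted p 0.01223). ndufb9, a membrane arm subunit, was at 208, 230, 238 and 245 CPM in the JpB livers and at 70.3, 119, 125, 129, 140 and 148 in the JpA livers, again apart (0.79, SE 0.18, adjusted p 0.02667). atp5pf stood at 164, 185, 190 and 224 against 76.9, 92.5, 96.8, 112, 117 and 129, with a fold of 0.74 (SE 0.16, adjusted p 0.02181). The lowest JpA liver was JpA liver 2 for most of these genes, and without it 20 genes were called and the median fold was 0.44.

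The calls in liver depended on the samples and the scaling. They numbered 1 without any one of the 4 JpB livers, 6 without JpA liver 1 or JpA liver 5, 7 without JpA liver 6, 21 without JpA liver 4 and 8 without both livers titled JpB. Among the livers of year 5 alone (4 JpB, 2 JpA) 31 were called higher and 1 lower, when 23.8% of all genes were called. With total counts only, the median was 0.15 against -0.47 over all genes, and 1 gene was called higher and 2 lower. Except for year 5 alone, the shares of all genes called in these refits are not given. A change particular to these genes cannot be read from the counts. Mean levels over the 56 genes were 6.99 to 7.16 in the JpB livers and 5.79 to 6.64 in the JpA livers. The JpB livers were also sequenced more deeply, from 83960180 to 97639817 counts against 29871688 to 77377846, and came from younger fish, so strain, age and depth cannot be told apart there. The 6 leukocyte markers had a median fold of -2.21 with 1 called lower, and their means ran from 0.99 to 1.52 log2 CPM in the JpB livers and from 1.43 to 5.23 in the JpA livers, and their part was not tested.

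**Figure D3:**
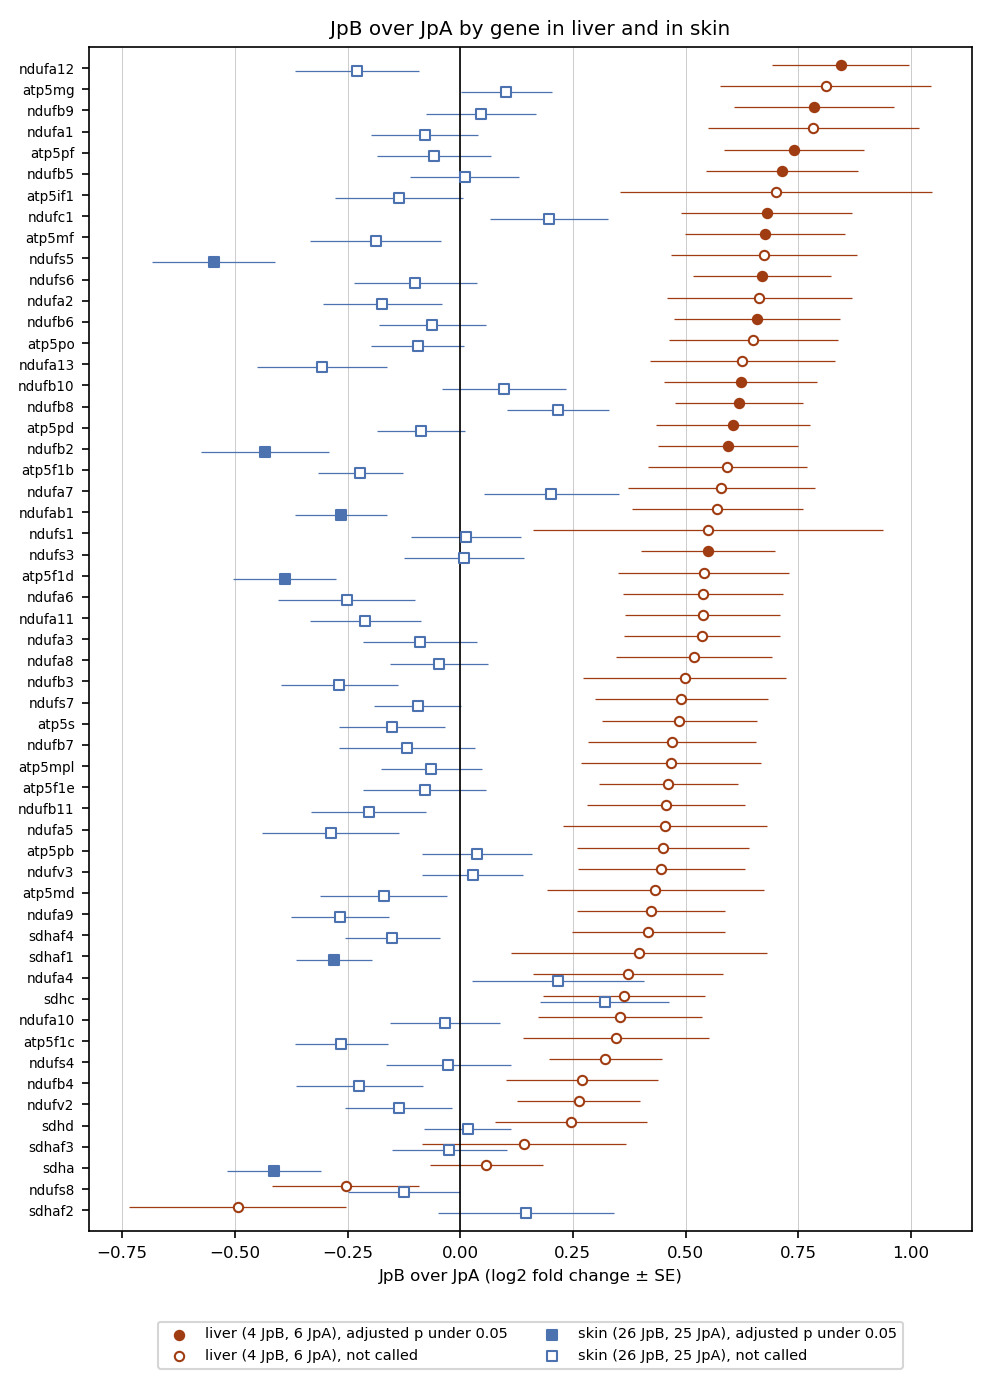
JpB over JpA (log2 fold change with its SE) for 55 of the 56 genes in liver (circles, 4 JpB and 6 JpA) and in skin (squares, 26 JpB and 25 JpA). Filled markers passed an adjusted p under 0.05. In liver 53 of the plotted genes lie above 0, and in skin the 6 plotted genes that were called lie below 0.

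Between the strains in skin (26 JpB, 25 JpA) the same genes moved little. The median log2 fold was -0.10 against 0.02 over all genes tested, and 7 genes, or 12.5%, were lower in JpB and none was higher. Of all genes tested 12.3% were lower and 13.2% higher, so the share of these genes called lower lay at the background. None passed the 3 limits that the study set for a difference (absolute log2 fold of at least 1, adjusted p under 0.05 and ROC area of at least 0.8), which 1.57% of all genes tested passed. The 7 genes included ndufs5, ndufb2 and ndufab1 of complex I, sdha, sdhaf1 and atp5f1d of complex V. Of 9 hepatocyte markers 4 were called higher in JpB and none lower (median 1.19), as were all 5 collagens (median 0.82). Their part was not tested.

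ndufs5, an accessory subunit (gene 102235733, chromosome 13, 13361715 to 13364571), had the lowest, the median and the highest CPM at 23.6, 30.9 and 117 in JpA skin and at 7.87, 24.8 and 33.1 in JpB skin. The strains overlapped over most of their ranges, and the JpA maximum was JpA skin 9. Its log2 fold was -0.55 (SE 0.14, edgeR adjusted p 0.002562). sdha had a fold of -0.41 (SE 0.10, adjusted p 0.002958) and atp5f1d, the delta subunit of the head, -0.39 (SE 0.11, adjusted p 0.009529). Without JpA skin 9, 4 genes were higher and 6 lower and the median was 0.01, and the share of all genes called in that refit is not given. Without JpB skin 11 and JpB skin 12, 14 were lower and none was higher, or 25% of the 56 genes, when 17.1% of all genes tested were lower and 31.6% were called in either direction. With the skins of years 4 and 5 alone and year as a covariate no gene was called.

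Within single years no gene was called by edgeR. In year 5 (JpB of 9 months, JpA of 13 months, 4 skins each) the median was 0.08 with 6 genes at an unadjusted p under 0.05. At an adjusted p under 0.05, 6.31% of all genes tested were higher and 6.47% lower. In year 4 (JpB of 11 months, 4 skins, JpA of 20 months, 5 skins) the median was -0.20 with 8 genes at an unadjusted p under 0.05. At an adjusted p under 0.05, 1.64% of all genes were higher and 1.87% lower. The share of all genes at an unadjusted p under 0.05 is not given for either year. The sign in year 5 rested on JpB skin 30, without which the median was -0.03 with 23 of the 56 genes above 0. In year 5, 7 of 10 hepatocyte markers were called higher in JpB and none lower (median 3.12), as were all 5 collagens (median 1.10). Of 8 markers of keratinocytes and mucous cells 2 were called lower and none higher (median -0.69), and the part of these lists was not tested. In year 4 all 7 muscle markers were below 0 in JpB, with a median of -1.12 and 1 of them, mybpc1, called, and their part was not tested. sdhc was at -0.38 (SE 0.12, adjusted p 0.07083) and atp5mf at 0.44 (SE 0.14, adjusted p 0.0708) in year 5, the smallest p-values of that year.

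Age was compared within strain in skin, and no gene of the 56 was called by edgeR in any of 3 comparisons. Between 24 months (16 samples) and 20 months (5) in JpA, the median fold was 0.09 with 44 genes above 0 and 2 at an unadjusted p under 0.05, ndufa2 at 0.77 and ndufs1 at -0.56. There 1.58% of all genes were called higher and 1.14% lower, at an adjusted p under 0.05. The sign rested on JpA skin 9, without which the median was -0.10 and 11 genes were above 0. Between 20 months (5) and 13 months (4) in JpA, the median was 0.31 with 50 genes above 0 and 16 at an unadjusted p under 0.05. Of all genes 0.0256% were called higher and 0.272% lower, at an adjusted p under 0.05. The share of all genes at an unadjusted p under 0.05 is not given in these comparisons. The counts at that limit therefore have no background beside them. The smallest p of that comparison was that of atp5f1e (0.59, SE 0.19, adjusted p 0.2006). Between 12 months (4) and 9 to 10 months (13) in JpB, with year as a covariate, the median was -0.29 with 4 genes above 0 and 10 at an unadjusted p under 0.05. Of all genes 1.47% were called higher and 1.23% lower, at an adjusted p under 0.05. atp5md, a small membrane subunit of ATP synthase, was nearest to the threshold at -0.65 (SE 0.19, adjusted p 0.06458), and 4 genes, or 7.14% against 8.37% of all genes tested, were called without JpB skin 3. The muscle markers had a median of -1.24 in this comparison with none called, and their part was not tested. Year goes with age between 20 and 13 months in JpA, and hour labels go with 24 months. In JpB the label CO-0min of year 2 and the label 0pt of year 3 occur only at 12 months.

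The year on the label was compared in JpB skin of 9 to 11 months (9 samples of year 2 and 4 each of years 3, 4 and 5). All skins of year 4 were of 11 months and all of year 5 were of 9 months. The number that follows XMB in the fish labels also differs between the years. Year and that number cannot be told apart, nor year and age in years 4 and 5. An F test over the years called 18 of the 56 genes, or 32.1%, where 35% of all genes tested were called. The median fold of year 5 over year 2 was -0.31, and of the 18 genes 15 were below 0 and 3 above. This count moved with 1 sample. JpB skin 3, a skin of year 2, carried the same fish label as JpB skin 4 and JpB skin 5. Without it 44 genes were called, or 78.6% against 49.9% of all genes, 41 of them below 0, and the median was -0.41. Without JpB skin 11 and JpB skin 12, also of year 2 and with the highest muscle markers, 16 were called, or 28.6% against 49.5% of all genes, and the median was -0.15. Without JpB skin 31 of year 5 the count was 11, and the share of all genes called is not given. The count of 18 also takes JpB skin 3 to 5 of 1 fish label, and JpB skin 15 and 16 of another, as separate samples. With all libraries of a fish label summed, most of the 56 genes were called. That count is given at the end, and the share of all genes called beside it is not given. Whether these genes lay near the share of all genes therefore depends on how libraries of a fish are treated. Other lists moved with year too. Of 10 hepatocyte markers 7 passed, with a median of 2.52 in year 5 over year 2, as did 4 of 5 collagens (median 0.91) and 4 of 8 markers of keratinocytes and mucous cells (median -0.55). The mean of the hepatocyte markers ran from -1.43 to 1.19 log2 CPM in year 2 and from 1.70 to 2.60 in year 5. The part of these lists was not tested.

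sdhc and sdhaf2 had the largest of these called folds. sdhc was at 16.8 CPM in JpB skin 3 and at 36.6, 39.9, 40.8, 46.3, 53.0, 56.5, 62.2 and 64.3 in the other skins of year 2, at 26.1 to 30.9 in year 3, 18.6 to 24.6 in year 4 and 16.8 to 20.6 in year 5. With JpB skin 3 set aside, these skins of year 2 lay above those of every later year. Outside this comparison, the JpB skins of 12 months of year 2 held 23.2 and 28.0 CPM and the JpB skin of year 1 held 29.9. The log2 folds over year 2 were -0.66 in year 3, -1.13 in year 4 and -1.34 in year 5 (edgeR adjusted p of the F test 0.0004407). sdhaf2 was at 2.78 to 7.23 CPM in 7 of the skins of year 2 and at 17.3 and 21.5 in JpB skin 11 and JpB skin 12, against 2.76 to 4.97 in year 5 (-1.23, adjusted p 0.02544). The groups overlapped for this gene. JpB skin 11 and JpB skin 12, which had the highest muscle markers, held its highest values, and the part of muscle was not tested. The 3 called genes above 0 in year 5 over year 2 were atp5if1 (0.43), ndufa13 (0.21) and ndufs5 (0.17).

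Hour of the day was tested in the 16 JpA skins of 24 months with a cosine and a sine of 24 h. Only sdha passed, which is 1.79% of the 56 genes against 2.27% of all genes tested. Its CPM was 65.1 and 72.8 at 2 h, 67.1 and 68.8 at 5 h, 93.9 and 96.4 at 8 h, 126 and 151 at 11 h, 129 and 138 at 14 h, 78.6 and 110 at 17 h, 90.3 and 91.1 at 20 h and 66.5 and 72.7 at 23 h. The 4 samples of 11 h and 14 h were above all others, and those of 23 h, 2 h and 5 h were low. The fitted amplitude was 0.52 log2 with a peak at 13.22 h (edgeR adjusted p 0.004211), and it was 0.52 without JpA skin 9. The next gene was ndufs1, with an amplitude of 0.46 and a peak at 4.53 h (adjusted p 0.09188).

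The other genes did not pass. The fitted peak fell between 15 h and 18 h for 50 of the 56 genes, around the hour of JpA skin 9, and the median amplitude was 0.35 log2 against 0.26 over all genes. Peak hours without JpA skin 9 are not given, so these peaks do not tell whether the other genes follow sdha. Without that sample the median amplitude was 0.10 against 0.23 over all genes, and 1 gene was still called. Without both samples of 17 h, 4 of the genes (7.14%) were called, when 18.9% of all genes tested were. For the genes that did not pass, a change with a 24 h period was not detectable with 2 fish at each hour. JpA skin 9 aside, the means of the 56 genes were 4.63 to 4.83 log2 CPM at 5, 11, 17 and 23 h. At 2, 8, 14 and 20 h they were 5.00 to 5.22, without overlap. A cosine of 24 h cannot follow such an alternation. The fish labels also differed (ab to ak in the lower set, m to w in the higher), so hour and set of fish cannot be told apart.

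**Figure D4:**
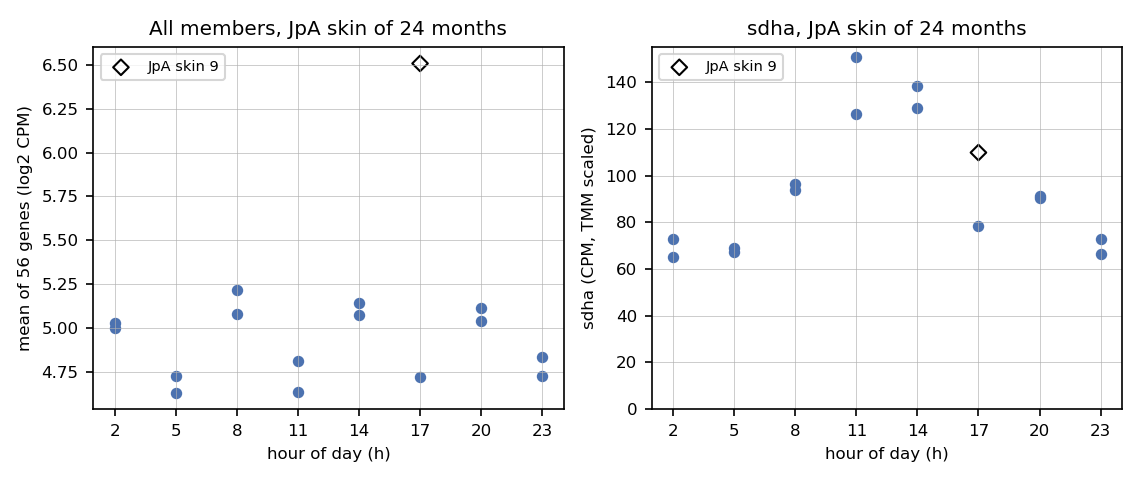
The 16 JpA skins of 24 months by hour of day (h). Left, the mean log2 CPM of the 56 genes, where JpA skin 9 (open diamond, 17 h) lies at 6.51 and the others at 4.63 to 5.22. Right, sdha in CPM (TMM scaled, axis from 0), which is highest at 11 h and 14 h with values of 126 to 151.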

How the data were processed

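RNA-Seq was made by the authors from skin and liver of both strains. The authors deposited a raw count of reads for each NCBI gene model and library, after mapping with TopHat2 and counting with featureCounts, whose versions are not given in the sources used here. Symbols and positions were taken from the RefSeq annotation of X_maculatus-5.0-male, which matched all 27242 gene identifiers. The genes, lists and tests were chosen with earlier results of these data known.

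Repeat libraries (same fish label and tissue) became 1 sample if chi-square divided by its degrees of freedom, taken across genes with 50 or more counts in both together, stayed below 3. This made 61 samples of 65 libraries. Libraries of a fish label above this limit stayed separate samples. They were JpA skin 22 and 23, JpA skin 24 and 25, and JpA liver 3 and 4. In JpB they were skin 3 to 5, and skin 15 and 16. The 25 JpA skins thus carry 23 fish labels, the 26 JpB skins 23 and the 6 JpA livers 5. These samples, and those of fish labels with both tissues, were treated as independent. The p-values therefore measure the spread between samples and not between fish. Nothing else in the labels says how separate the fish of a group were. Genes were kept by filterByExpr (smallest count 10), TMM scaled and tested by quasi-likelihood (glmQLFit, glmQLFTest) in edgeR 4.0.16 with R 4.3.3 and limma 3.58.1, with Benjamini-Hochberg adjustment over all genes tested and a limit of 0.05. All 56 genes passed the filter in every comparison. Log2 CPM used a prior count of 2. Hour was fitted with a 24 h period. DESeq2 1.42.0, other scalings and filters, a replicate block and the omission of samples were alternatives. Python 3.11.15 with pandas 2.3.3, numpy 2.4.6, scipy 1.17.1 and matplotlib 3.10.9 served for levels and figures. The fit was tested on simulated data.

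Named genes were up to 3 of each complex with the smallest adjusted p in each comparison, 8 for hour, together with isoform pairs, of which ndufa4 and atp5if1 had a matching symbol. A further part of the rule, the highest level per kilobase, could not be applied without transcript lengths. ndufs1, ndufa5, ndufa1, ndufb3, atp5po, atp5f1b, sdhaf1, sdhaf2, ndufs8, suclg2, fh, cs and ppargc1a were also named in comparisons where the rule did not choose them, after their values were seen. So were ndufab1, ndufa13, ndufs5, ndufb2, ndufb5, ndufb6, ndufb8, ndufb10, ndufc1 and ndufs3, where the text lists called genes. 1 gene that the rule named is not reported here by name, and it stays in the counts and medians.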

Additional observations from a re-analysis of the deposited data

Results flagged for a closer look

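Over 45 combinations of a group of 4 to 10 samples and a gene list, those in which a single sample lay far from the rest by Dixon's criterion are given here. Chance meets that criterion in about 1 in 20 groups. JpA liver 2 was low among the 6 JpA livers, with means of 5.79 log2 CPM over all 56 genes, 5.73 over complex I and 6.73 over complex V. JpB skin 3 was low among the JpB skins of 9 months of year 2, with 4.07 over all genes, 3.95 over complex I, 4.53 over complex II, 1.68 over the complex II assembly factors and 4.94 over complex V. JpB skin 30 was high among the JpB skins of year 5, with 5.15 over all genes, 5.14 over complex I and 6.03 over complex V. JpB skin 26 was high in complex II among the JpB skins of 11 months, at 5.24.

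The liver over skin fold differed between JpB and JpA by the interaction test of edgeR for 8 genes. The differences were 1.05 log2 for ndufb9, 1.21 for ndufa1, 1.01 for ndufa12, 0.92 for ndufb5, 1.01 for ndufs5, 0.93 for sdhaf4, 0.99 for atp5f1e and 0.79 for atp5pf, with adjusted p from 0.02093 to 0.04641.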

How the results depend on the processing

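With no scaling beyond total counts the genes called numbered 21, 24 and 16 in liver over skin (JpB, JpA of 20 months, JpA of 13 months; medians -0.15, -0.37 and -0.31), 3 in strain in liver (median 0.15), 1 in the difference between strains (median 0.23), 1 in the skins of year 5 and 1 in age 24 over 20 months. Named folds that were called and turned sign were, in JpB, sdhd -0.55, sdha -1.64, sdhaf4 -0.23, sdhaf1 -0.73, sdhaf2 -0.19, atp5pd -0.083 and atp5if1 -0.37, in JpA of 20 months sdhc -0.016, sdhd -0.71, sdhaf2 -0.067, sdhaf4 -0.70, atp5f1e -0.0081 and atp5if1 -0.67, and in JpA of 13 months sdhc -0.40, sdhd -0.69, sdha -1.19, sdhaf4 -0.62, sdhaf3 -0.86, atp5pf -0.18 and atp5if1 -0.40. Upper quartile scaling gave a median of 1.75 in JpB. With no filter on low counts 6 genes were called in strain in liver and 5 in the difference between strains. Strain in skin called 0 genes with year as a covariate, 14 without JpB skin 11 and 12, and 13 without these, JpA skin 9 and JpB skin 3. Strain in liver called 32 among the livers of year 5 and 8 without the livers titled JpB. Age 24 over 20 months called 2 without JpA skin 9, and JpB age 2 with all libraries of a fish label summed, 1 without JpB skin 11 and 12 and 4 without JpB skin 3. Year called 45 with fish labels summed and 44 without JpB skin 3. Leaving out single samples or hours gave 0 to 1 calls in the skins of year 5 and of year 4, 1 to 21 in strain in liver, 0 to 18 in the difference between strains, 11 to 44 for year and 1 to 4 for hour. The cause of these changes was not tested beyond the samples and settings named. Where no share of all genes called stands beside a count, a change particular to these genes cannot be read from it. Alternatives on JpA skin 9, JpB skin 3, the livers titled JpB and single samples of the strain difference, year and JpB age were chosen after seeing the data.

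Replicate numbers do not pair the strains, as 1 of 18 shared numbers in skin and 0 of 4 in liver correlated best with their own number (median correlation 0.01 and -0.20). With a replicate block 6 genes were called in skin, 3 of them higher, and 0 in liver, where the median stayed at 0.55.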
